A study of Mus musculus with 6 samples.

Results

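The m6A writer is the enzyme complex that puts N6-methyladenosine (m6A) on messenger RNA. Its genes were followed here as 9 members chosen by gene name: Mettl14, Mettl3, Mettl16, Wtap, Virma, Zc3h13, Cbll1, Rbm15 and Rbm15b. All 9 were among the 55487 genes of the deposited files. The study sequenced polyadenylated RNA of isolated colonic crypt cells from C57BL/6 mice aged 4 weeks. Controls were M14(f/f), which carry loxP sites around M14 on both alleles and no Cre (3 libraries). Mutants were M14(f/f);Villin-Cre, which add to those alleles a Cre recombinase driven by the Villin promoter, which is active in gut epithelium (3 libraries). The mice are described as 3 pairs, and no label says which control belongs with which mutant. M14 is read here as Mettl14. No group carried Cre without flanked alleles, so Cre and deletion cannot be told apart. These libraries measure RNA only, not m6A and not protein.

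METTL3 and METTL14 form the core of the writer: METTL3 binds the methyl donor S-adenosylmethionine and carries out the reaction, and METTL14, which has no catalytic activity of its own, holds the RNA and stabilises METTL3. WTAP brings the core to nuclear speckles. VIRMA, ZC3H13, the ubiquitin ligase CBLL1 (also called HAKAI) and the RNA-binding paralogs RBM15 and RBM15B join it as adaptors that guide where m6A is placed. METTL16 works apart from this complex and methylates U6 small nuclear RNA and hairpins in the tail of the Mat2a transcript. In the gut epithelium the writer is known for its part in keeping crypt stem cells alive.

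The Mat2a hairpins are shown first, because Mettl16 and Mat2a are compared below. A search of the principal Mat2a transcript (GENCODE M21, GRCm38) for the box bound by METTL16 found 6 copies after the stop codon, given here 5′ to 3′ as DNA letters with the box in capitals and the distance of its first base from the stop codon.
Mat2a box at 40 bases: tggcgtaggtTACAGAGAAgccttcaagc
Mat2a box at 824 bases: ccttgtgataTACAGAGAAgtcacagggc
Mat2a box at 1003 bases: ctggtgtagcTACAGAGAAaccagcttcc
Mat2a box at 1118 bases: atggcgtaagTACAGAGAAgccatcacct
Mat2a box at 1229 bases: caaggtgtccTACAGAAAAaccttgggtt
Mat2a box at 1337 bases: gctggtgtggTACAGAGAAgccagcttgt
The box TACAGAGAA, searched on the transcript strand only, occurred 5 times after the stop codon of Mat2a, and the remaining copy read TACAGAAAA. Of 14212 tested genes with a principal transcript, 2.41% held TACAGAGAA after the stop codon, and 1 gene, Mat2a itself, held it 5 times or more.

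Library totals ran from 24181631 to 35183636 counts, and the members held 346 to 5293 counts in single libraries, far above the floor of 3 counts (0.0853 to 0.124 CPM, counts scaled to library size, counting error only). Mutant 1 and mutant 2 stood apart from the other libraries in sex-linked transcripts, for which the labels used here name no sex. Xist stood at 652 CPM in mutant 1, 53.1 CPM in mutant 2 and 1.28 to 1.77 CPM in the others, and the Y-linked gene Kdm5d at 0.966 CPM, 48.5 CPM and 56.7 to 81.9 CPM. Mutant 2 thus held Xist together with Y-linked transcripts, and whether it came from 1 animal or from mixed material cannot be told apart. Results for the members are therefore also given without these libraries, which leaves mutant 3 alone in its group. Epithelial markers were abundant in every library, with a summed level over 11 genes (among them Epcam, Cdh1, Vil1 and Muc2) of 24246 to 28198 CPM in controls and 16357 to 17426 CPM in mutants. Of these 11 genes 6 fell, 1 rose and 4 did not pass. The largest part of the sum was Muc2, the main mucin of goblet cells, at 10857 to 16197 CPM in controls and 5437 to 7226 CPM in mutants. Lgr5, which marks crypt stem cells, stood at 18.3 to 21.6 CPM and 2.13 to 2.76 CPM, and Cdh1 at 1392 to 1443 CPM and 1590 to 1748 CPM. Of 10 markers of macrophages and dendritic cells 9 rose and 1 fell, with sums of 32.2 to 41.2 CPM and 66.8 to 94.8 CPM. The largest part of these sums was Cd14, at 16.8 to 20.3 CPM in controls and 27.9 to 36.3 CPM in mutants. All 4 tested neutrophil markers rose (8.96 to 13.1 CPM and 12.8 to 39.5 CPM). Most of that sum was Ly6g, at 8.22 to 12.9 CPM in controls and 11.1 to 34.3 CPM in mutants. Of 6 fibroblast markers 4 fell (194 to 226 CPM and 84.6 to 102 CPM). Among 5 smooth muscle markers 3 fell (69.7 to 77.7 CPM and 55.3 to 58.9 CPM), and of 5 endothelial markers 2 rose and 1 fell (11.7 to 13.0 CPM and 19.9 to 22.3 CPM). Of 6 T cell markers 1 rose (4.25 to 5.71 CPM and 5.74 to 7.45 CPM), and of 3 tested markers of enteric glia and neurons 1 rose (2.97 to 3.18 CPM and 3.40 to 5.09 CPM). The 1 tested marker of B and plasma cells did not pass, with sums of 0.710 to 1.22 CPM and 1.08 to 2.00 CPM for its list. No marker of any list was at 0 in all 6 libraries, and the part of these cells in the results below was not tested. In bulk RNA, fewer cells of a type and less RNA per cell cannot be told apart.

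The comparison of mutants with controls asks how transcripts of the writer differ when its RNA-binding subunit is deleted. The core pair fell and most of the adaptors rose. By the quasi-likelihood test of edgeR, with p-values adjusted over all 18539 tested genes by Benjamini-Hochberg and called below 0.05, 2 members fell (Mettl14 and Mettl3) and 5 rose (Mettl16, Wtap, Virma, Cbll1 and Rbm15). Zc3h13 and Rbm15b did not pass. Over all tested genes 46.3% were called, 23.5% higher and 22.8% lower, so a change of a single member is not unusual in these libraries. The median log2 fold change of the members, mutant minus control, was 0.38, beside 0.0063 over all tested genes. CPM below are scaled by TMM, and each ± is the SD (n = 3).

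**Figure D1:**
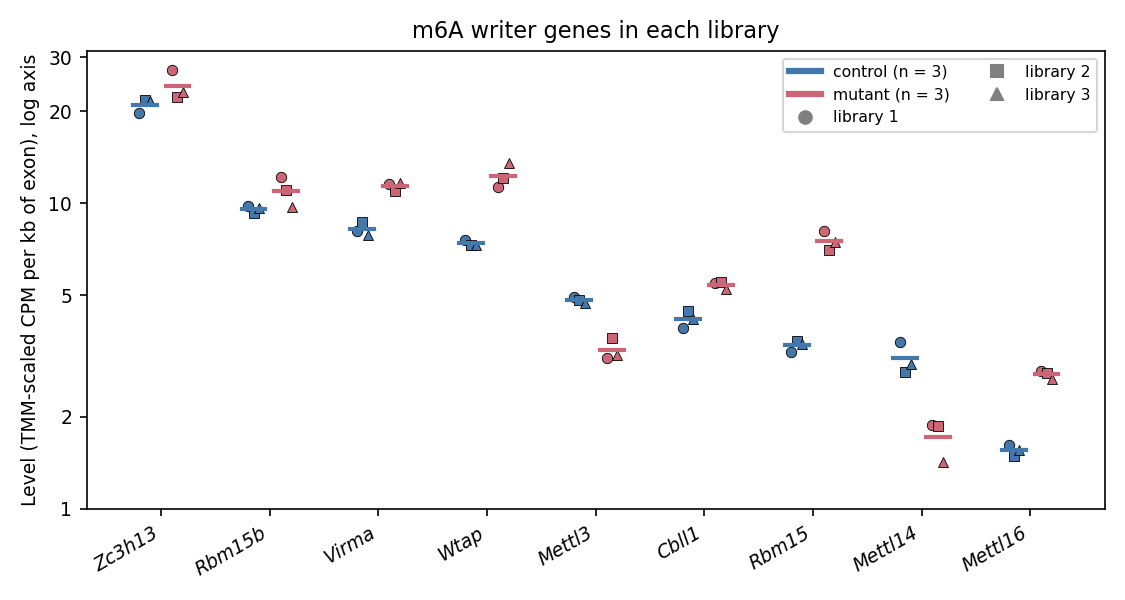
Level of each m6A writer gene in every library, as TMM-scaled CPM per kilobase of merged exon on a log axis; blue marks the 3 control libraries, red the 3 mutant libraries, symbols the library number within its group and bars the group mean. Mettl3 and Mettl14 were lower in all 3 mutants than in any control, and only Rbm15b among the 9 genes had overlapping groups.

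Mettl14, the targeted gene, lies on the minus strand of chromosome 3 (chr3:123368297-123386108, GRCm38, ENSMUSG00000028114.16). It stood at 26.2, 20.9 and 22.04 CPM in control 1, 2 and 3, and at 13.99, 13.8 and 10.5 CPM in mutant 1, 2 and 3. Every mutant was below every control, and mutant 3 was the lowest library. The mutant level was 55.3% of the control level (log2 fold change -0.85, SE 0.133, 95% interval -1.15 to -0.56, adjusted p = 6.22e-04). Without mutant 1 and mutant 2 it was -1.16 (adjusted p = 8.66e-04), and over 18 alternatives that test for any change the adjusted p ran from 1.97e-12 to 0.00313. Against a null of 1.5-fold change the call was lost (adjusted p = 0.0612). Of the 9 members Mettl14 had the widest spread among controls, with a coefficient of variation of 12.1%. The counts cover the whole gene, so reads from exons that were not flanked and from cells without Cre are included. The labels do not say which exons were flanked. No exon of another annotated gene overlaps those of Mettl14.

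Mettl3, the catalytic subunit, fell too. Its level (chr14:52294841-52305128, minus strand) was 25.02, 24.5 and 24.0 CPM in controls and 15.8, 18.4 and 16.2 CPM in mutants. The controls lay within a coefficient of variation of 2.08%, and the 3 mutants were all lower. Mutants held 68.4% of the control level (log2 fold change -0.55, SE 0.0866, adjusted p = 6.89e-04). The value was -0.63 (adjusted p = 0.00392) without mutant 1 and mutant 2. Against a 1.5-fold null the adjusted p was 0.962. Mettl3 shares 933 exon bases with Tox4 on the opposite strand, and the counting used the strand, per the file headers.

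The adaptor with the largest change was Rbm15, an RNA-binding protein that brings the writer to its targets (chr3:107325421-107333673, minus strand). Its level was 24.3, 26.3 and 25.8 CPM in controls and 60.1, 52.1 and 55.3 CPM in mutants. The mutants were 2.20-fold higher with a wide gap between the groups (log2 fold change 1.13, SE 0.0776, 95% interval 0.96 to 1.31, adjusted p = 4.62e-06), and 1.09 on the log2 scale without mutant 1 and mutant 2. Of all tested genes 14.9% had a larger absolute change. Its paralog Rbm15b (chr9:106880918-106887428, minus strand) stood at 63.5, 60.5 and 62.9 CPM in controls and 79.2, 72.0 and 63.03 CPM in mutants. Mutant 1 was the highest and mutant 3 lay within the control range. The log2 fold change of Rbm15b was 0.20 (95% interval 1.31e-04 to 0.39) and missed the threshold after adjustment (adjusted p = 0.0933). It passed without mutant 3 (0.28, adjusted p = 0.0213) and turned to -0.01 (adjusted p = 0.935) without mutant 1 and mutant 2. It passed with total counts as the only scaling as well (0.26, adjusted p = 0.0271). Rbm15b shares 14 exon bases with Manf on its own strand, 0.215% of its length.

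Wtap, the scaffold of the complex (chr17:12966796-12994169, minus strand), rose from 46.2 ± 0.950 CPM to 76.8 ± 7.03 CPM. Controls held 47.3, 45.6 and 45.6 CPM, and mutants 70.7, 75.3 and 84.5 CPM. The groups were far apart, and the spread was larger among mutants. The rise of Wtap was 0.74 on the log2 scale (SE 0.0792, adjusted p = 6.71e-05), or 0.84 without mutant 1 and mutant 2, and was not called against a 1.5-fold null (adjusted p = 0.0733). Virma, the largest subunit and a bridge to the polyadenylation machinery (chr4:11485958-11550684, plus strand), held 58.01, 62.1 and 56.1 CPM in controls and 82.1, 78.4 and 83.1 CPM in mutants. It rose by 0.47 on the log2 scale (SE 0.0690, adjusted p = 4.56e-04), and by 0.47 without mutant 1 and mutant 2.

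Cbll1, the ubiquitin ligase of the complex (chr12:31484829-31499616, minus strand), was the adaptor with the lowest CPM. It stood at 15.7, 17.7 and 16.8 CPM in controls and 21.99, 22.2 and 20.9 CPM in mutants. The groups did not overlap, and the rise was 0.38 on the log2 scale (SE 0.0840, adjusted p = 0.00499). With mutant 3 as the only mutant the value was 0.29 and the call was lost (adjusted p = 0.110). Zc3h13, a zinc finger protein that keeps the complex in the nucleus (chr14:75284373-75344426, plus strand), was the most abundant member. Controls held 124, 136 and 135 CPM, and mutants 171, 140 and 145 CPM. The lowest mutant lay just above the highest control. The log2 fold change of Zc3h13 was 0.20 (95% interval 8.44e-04 to 0.40, adjusted p = 0.0923), or 0.11 without mutant 1 and mutant 2. It passed with total counts as the only scaling (0.27, adjusted p = 0.0210).

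**Figure D2:**
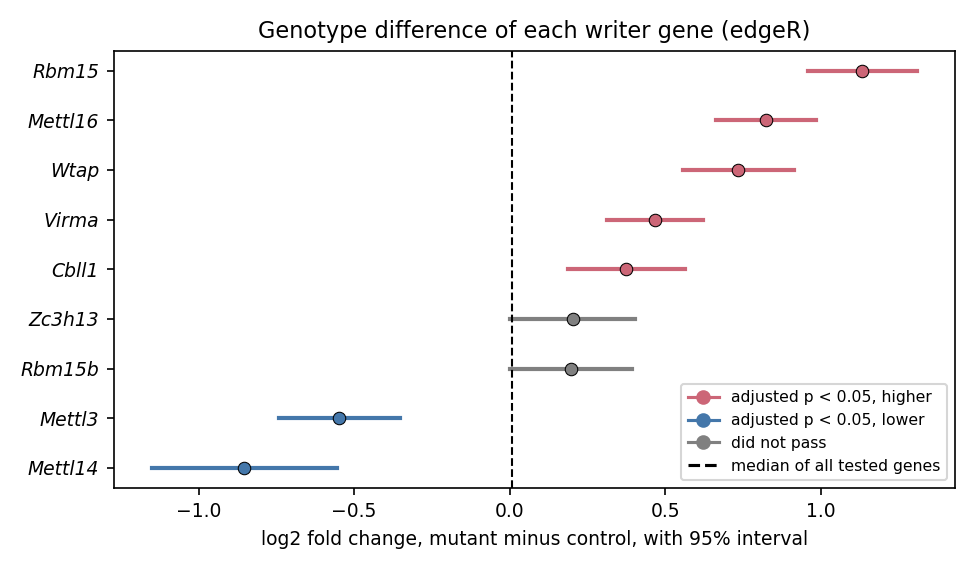
Log2 fold change of each m6A writer gene, mutant minus control, from edgeR; lines are 95% intervals, colours the call at an adjusted p of 0.05, and the dashed line is the median of all tested genes. Mettl14 (-0.85) and Mettl3 (-0.55) lie left of that line and Rbm15 (1.13), Mettl16 (0.82) and Wtap (0.74) farthest to its right.

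Mettl16, the methyltransferase outside the complex (chr11:74770830-74828525, plus strand), rose. It stood at 22.4, 20.5 and 21.5 CPM in controls and 39.2, 38.3 and 36.7 CPM in mutants, with little spread in either group. Mutants held 177% of the control level (log2 fold change 0.82, SE 0.0723, adjusted p = 1.94e-05), and the log2 fold change was 0.74 (adjusted p = 0.00106) without mutant 1 and mutant 2. Its known target Mat2a, which encodes the enzyme that makes S-adenosylmethionine and carries the boxes printed above, moved the opposite way. Mat2a held 194, 236 and 223 CPM in controls and 142, 137 and 128 CPM in mutants. All 3 mutants were below all 3 controls (log2 fold change -0.68, SE 0.0886, adjusted p = 2.10e-04).

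Of the 9 members 8 had CPM ranges that did not overlap between the groups, 6 higher and 2 lower. Over all tested genes the ranges did not overlap for 56.9%, with 28.7% higher and 28.2% lower. Levels of different genes were compared per kilobase of merged exon length (RPKM). In controls the order from high to low was Zc3h13 (20.98 ± 1.05 RPKM), Rbm15b (9.57 ± 0.239 RPKM), Virma (8.23 ± 0.431 RPKM), Wtap (7.39 ± 0.152 RPKM), Mettl3 (4.83 ± 0.100 RPKM), Cbll1 (4.17 ± 0.257 RPKM), Rbm15 (3.43 ± 0.142 RPKM), Mettl14 (3.10 ± 0.375 RPKM) and Mettl16 (1.55 ± 0.0663 RPKM). Among neighbours in that order only Rbm15 and Mettl14 overlapped over the 3 libraries. In mutants Rbm15 (7.52 ± 0.542 RPKM) stood above Cbll1 (5.41 ± 0.169 RPKM) and Mettl3 (3.31 ± 0.281 RPKM), and Mettl14 was the lowest, at 1.72 ± 0.264 RPKM, below Mettl16 at 2.75 ± 0.0914 RPKM. There Wtap (12.3 RPKM) overlapped with Virma (11.4 RPKM), and Virma with Rbm15b (10.97 RPKM), and no other neighbours overlapped.

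The order between genes depends on the length used, because for some members the merged exons are much longer than the principal transcript. The lengths are 7419 and 2741 bases for Mettl14, 5076 and 2025 for Mettl3, 6248 and 2060 for Wtap, and 7423 and 4343 for Rbm15. Per kilobase of principal transcript, Wtap had the highest control mean (22.4 CPM per kilobase), followed by Zc3h13 (21.4) and Mettl3 (12.1). Mettl16 was then the lowest in mutants, at 3.02 CPM per kilobase, and Mettl14 stood above it at 4.67. Rbm15, at 12.9 CPM per kilobase in mutants, then stood above Rbm15b at 10.97, the reverse of their order by merged exons. The log2 fold change of a gene does not depend on its length. The level summed over the 9 members was 63.3 ± 0.789 RPKM in controls and 79.5 ± 3.53 RPKM in mutants.

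Ratios between members within a library show how the core pair and the adaptors shifted against each other. Mettl3 to Mettl14, per kilobase of merged exon, was 1.40, 1.72 and 1.59 in controls and 1.65, 1.94 and 2.24 in mutants. These ranges overlapped, mutant 1 lying inside the control range. Wtap to Mettl14 was 2.14, 2.596 and 2.46 in controls and 6.00, 6.46 and 9.53 in mutants, and the lowest mutant was above every control. Wtap to Mettl3 went from 1.53 ± 0.0151 to 3.74 ± 0.470. Rbm15 to Rbm15b went from 0.359 ± 0.0228 to 0.690 ± 0.0711. Mettl16 to Mettl3 was 0.322 ± 0.0120 in controls and 0.837 ± 0.0740 in mutants. The size of each ratio depends on the lengths used, and its change between the groups does not. The ratios have no test of their own.

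**Figure D3:**
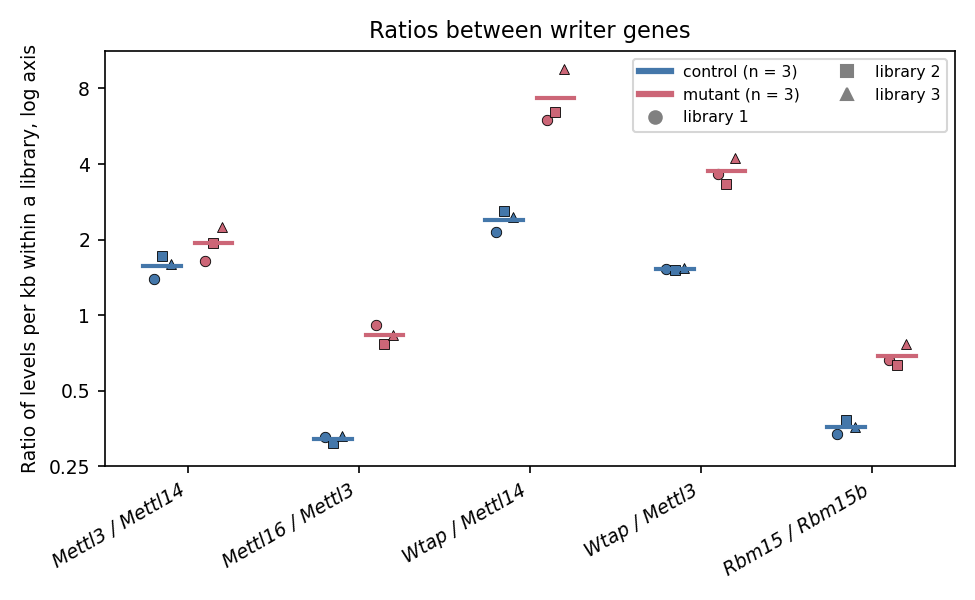
Ratios of levels per kilobase of merged exon between pairs of writer genes within each library, on a log axis; blue marks controls, red mutants, symbols the library number and bars the group mean. For Mettl3 to Mettl14 the groups overlap (1.40 to 1.72 and 1.65 to 2.24), and for the other 4 ratios shown all mutants lie above all controls.

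Patterns across the 6 libraries were compared by the Euclidean distance between log2 CPM values, each gene centred on its own mean. Among the members the closest pair was Virma and Cbll1 (0.194), followed by Zc3h13 and Rbm15b (0.226), and Mettl16 and Wtap (0.283). Mettl14 and Mettl3 lay 0.529 apart. Of 10308 genes with a mean of at least 5 CPM, those closest to Mettl14 were Mlxipl (0.136), Cat (0.138), which encodes catalase, and Pclaf (0.144). Closest to Mettl3 were Acp2 (0.0597), Rab25 (0.0677) and Zfp692 (0.0704). Closest to Rbm15 were Abca2 (0.0549), Nfic (0.0813) and Ncl (0.0950), which encodes nucleolin. A distance over 6 libraries in 2 groups is mostly set by the genotype difference and describes likeness only.

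Other genes of the m6A pathway did not share 1 direction. Neither eraser passed: the list holds only the demethylase genes Fto and Alkbh5, which had log2 fold changes of 0.01 (95% interval -0.17 to 0.20) and -0.06 (95% interval -0.24 to 0.11). The median over 12 reader genes was 0.02: 5 were called higher, 3 lower and 4 neither, where 46.3% of all tested genes were called in either direction. Ythdf2, a cytoplasmic reader that speeds the decay of its targets, went from 49.4 ± 4.61 CPM to 137 ± 8.46 CPM (log2 fold change 1.47, adjusted p = 2.07e-06). Its relatives Ythdf1 and Ythdf3 had log2 fold changes of 1.10 and 0.59 (adjusted p = 5.79e-06 and 1.10e-04). Rbmx, a nuclear RNA-binding protein, fell by 1.24 (adjusted p = 3.17e-05). Of 4 genes tied to recruitment or regulation of the writer 2 rose, Spen by 0.89 and Zfp217 by 0.30, and 2 did not pass. The share called was near the 46.3% of all tested genes called in either direction, and 23.5% were called higher. Spen is a large relative of Rbm15 and went from 198 ± 2.68 CPM to 368 ± 34.0 CPM. That count of rises was 1 without control 3, 1 at an adjusted p threshold of 0.01, and 3 with total counts as the only scaling. Against a null of 1.5-fold change it was 1.

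Of 5 genes in the list of other adenosine methyltransferases of RNA 2 fell and 3 did not pass. The share called was again near the 46.3% of all tested genes called in either direction, and 22.8% were called lower. Mettl5, which methylates 18S ribosomal RNA, fell from 12.8 ± 0.677 CPM to 7.74 ± 0.425 CPM (log2 fold change -0.73, adjusted p = 4.99e-04). Its activator Trmt112 fell from 3.94 ± 0.258 CPM to 2.19 ± 0.818 CPM (adjusted p = 0.0261). The count of 2 became 1 without control 1, without control 2 and without mutant 3. It was also 1 at an adjusted p threshold of 0.01, and 0 against a null of 1.5-fold change. Among 13 other Mettl-named methyltransferases 3 rose and 6 fell, with a median of -0.28, beside 23.5% higher and 22.8% lower over all tested genes. The log2 fold changes were 0.82 for Mettl18, 0.34 for Mettl9, -0.63 for Mettl8 and -0.77 for Mettl23.

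Genes listed for supply and recycling of the methyl donor, relatives of such genes included, were lower in mutants. All 6 tested of 7 listed fell, with a median log2 fold change of -0.54. Over all tested genes 22.8% were called lower and 46.3% in either direction. The list was chosen with earlier results of these data known, so the count is descriptive only. The untested gene, Mat1a, was below the filter on low counts. Ahcyl2, a relative of the enzyme that breaks down S-adenosylhomocysteine, fell from 593 ± 55.8 CPM to 214 ± 29.1 CPM. The gene of that enzyme itself, Ahcy, fell from 16.8 ± 0.283 CPM to 12.8 ± 0.515 CPM. Adk, which clears the adenosine released in that step, fell from 111 ± 8.30 CPM to 49.6 ± 4.51 CPM. Mat2b, the regulatory partner of Mat2a, fell by 0.40 on the log2 scale. All 6 were called lower without mutant 1 and mutant 2 as well, and 5 or 6 were in each other alternative that tests for any change.

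**Figure D4:**
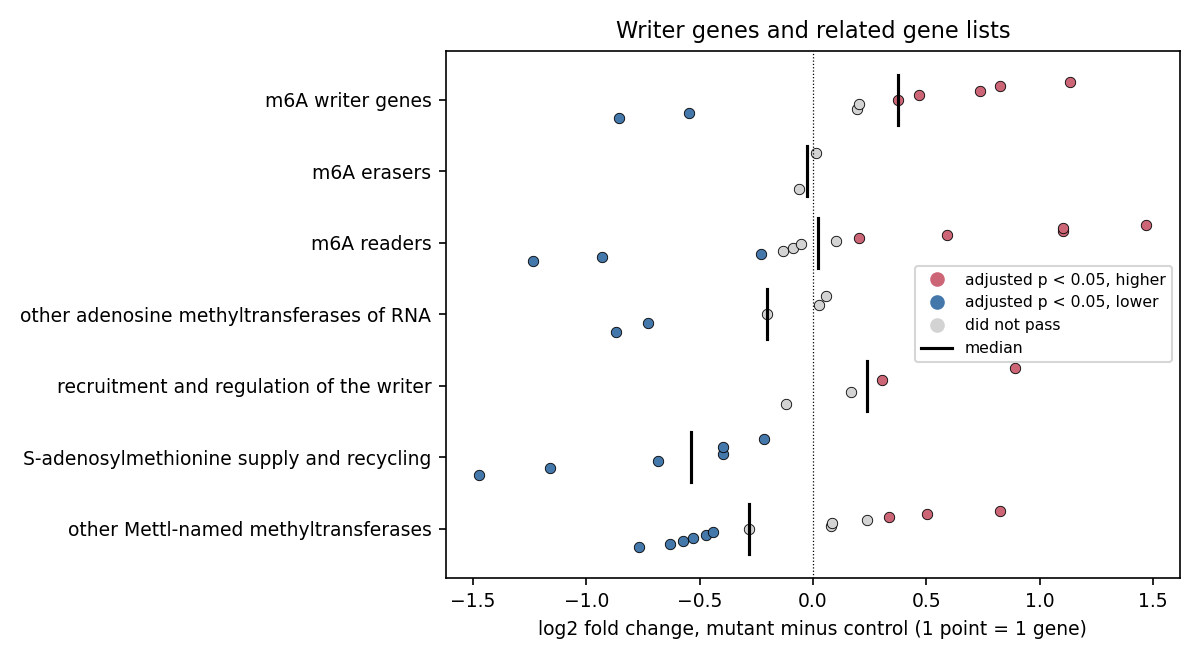
Log2 fold change, mutant minus control, of the 9 writer genes and of 6 lists of related genes; each point is a tested gene, coloured by its call at an adjusted p of 0.05, and black bars are medians. Writer genes lie on both sides of 0 with a median of 0.38. All 6 tested genes listed for S-adenosylmethionine supply and recycling lie below 0.

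Start-site sequences were compared because members moved in different directions. RefSeq promoters (GRCm38.p6) were at hand for 7 members: Mettl3, Mettl16, Wtap, Zc3h13, Cbll1, Rbm15 and Rbm15b. The 250 bases before the start site nearest to the deposited 5′ end were searched on both strands for the CCAAT box (letters CCAAT), the GC box (letters GGGCGG), the TATA box (letters TATAAA), the E box (letters CACGTG), an ETS-type motif (letters CCGGAAG) and a CRE-type motif (letters TGACGTCA). Wtap had 3 RefSeq start sites and Zc3h13 had 2, and only the nearest of each was searched. The letters CCAAT occurred in 3 of the 7, in Rbm15, Mettl16 and Wtap, and in 33.8% of all 32851 promoters of the table. These are the 3 members with the largest rises, a match seen after the values were known and not tested. Cbll1 rose without the letters, and Virma and Mettl14 had no promoter at hand. The windows are shown 5′ to 3′ on the strand of the gene with the box, or its reverse complement, in capitals.
Rbm15 (chr3:107333376-107333404, minus strand): cgtggccacaaaCCAATgaaagggaagag
Rbm15 (chr3:107333301-107333329, minus strand): cagagtttttgtCCAATcaacgcttctag
Wtap (chr17:12992648-12992676, minus strand): tgcctggaagagCCAATcacgcgcttgtc
Mettl16 (chr11:74770834-74770862, plus strand): tgtccagtcacggcgcggATTGGctgcgc
The boxes of Rbm15 begin 103 and 28 bases before its RefSeq start, that of Wtap 121 bases and that of Mettl16 11 bases before. For these 3 genes, Rbm15b and, by a few bases, Mettl3, the deposited gene model reaches past the RefSeq start. The windows printed above lie inside the deposited spans of their genes, and may be part of a longer transcript.

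Mettl3, the member of the 7 that fell, held none of the 6 motifs. It is a single gene, so no contrast with the members that rose can be drawn from it. The part of its window outside the deposited gene model (chr14:52305129-52305374, minus strand) is shown.
Mettl3: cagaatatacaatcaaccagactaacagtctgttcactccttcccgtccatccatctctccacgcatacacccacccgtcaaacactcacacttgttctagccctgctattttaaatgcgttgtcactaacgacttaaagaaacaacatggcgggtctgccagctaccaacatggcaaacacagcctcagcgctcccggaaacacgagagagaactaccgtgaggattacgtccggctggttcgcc
The GC box occurred in Wtap, Zc3h13, Cbll1 and Rbm15b, 4 of 7 members and 32.7% of all promoters. The E box was found in Rbm15b alone (6.02% of all promoters) and the ETS-type motif in Zc3h13 alone (6.91%). A match is a run of letters and not a bound site, and no binding was measured.

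The writer's own transcripts also hold letters of the m6A motif. The pentamer GGACT, the form of the motif most often methylated, occurred 2 to 14 times in the principal transcripts of the members, searched on the transcript strand. Wtap had 2.43 and Mettl3 1.98 per kilobase, above the median of 1.06 over 14212 tested genes, and Rbm15 had 0.461, a density above that of 15.6% of genes. Mettl14 stood near the median at 1.09 per kilobase. Mettl14, Mettl3 and Wtap each held 1 copy within 200 bases of the end of the stop codon, as 39.8% of tested genes did at least once, and the other 6 members held none there. Wtap rose and Mettl3 fell, both with a dense motif, and no m6A was measured here.

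**Figure D5:**
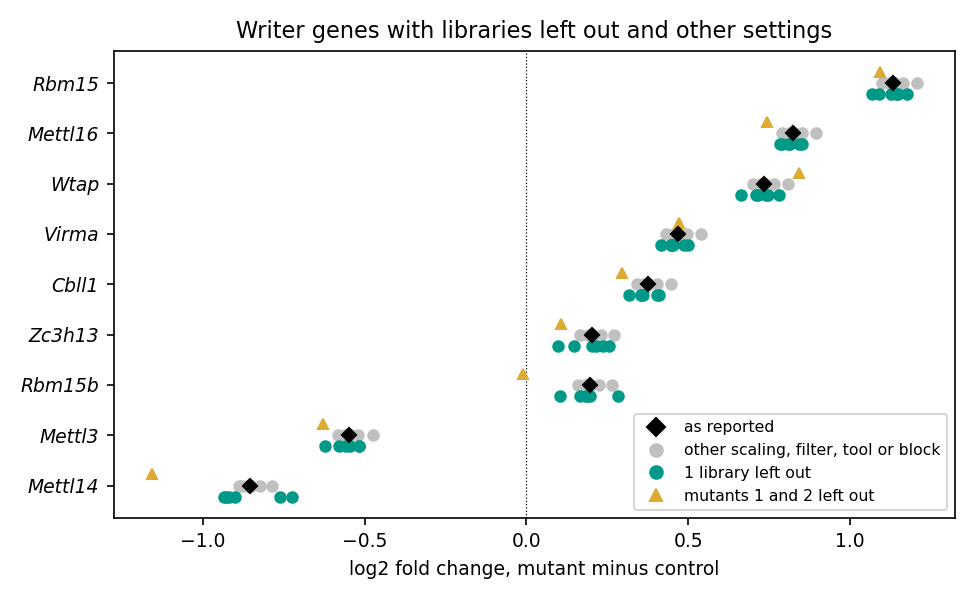
Log2 fold change of each m6A writer gene as reported (black), with another scaling, filter, tool or block (grey), with 1 library left out (green), and with mutants 1 and 2 left out (yellow triangles). Of the 9 genes only Rbm15b crosses 0, at -0.01 with mutants 1 and 2 left out, and Mettl14 moves to -1.16 there.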

How the data were processed

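The members and gene lists were chosen with earlier results of these data known. The submitters' processing notes name Trim Galore 0.6.5, STAR 2.6.1d and the GRCm38 build. The deposited files hold raw counts per gene, 1 file per library, made by featureCounts 1.6.4 with the GENCODE M25 annotation, for paired fragments on the strand of read 1, per the file headers. The gene lengths used for levels per kilobase are those deposited beside the counts. No row lacked a gene name. Same-group libraries were compared 2 at a time and none were duplicates (chi-square per gene 14.04 to 90.8).

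The test used edgeR 4.0.16 (R 4.3.3) with filterByExpr (minimum count 10, minimum total 15), TMM scaling, and a 2-sided quasi-likelihood F test. Genotype was the only term, on all 6 libraries. The same steps were run on simulated counts, in which a far smaller share of genes changed than was called here. All 9 members and all 18539 genes in total passed the filter. DESeq2 1.42.0, limma-voom (limma 3.58.1) and other scalings, filters and library sets were alternatives. The text names all members, up to 4 called genes with the smallest p from each related list, Mat2a and Ahcy. It also names the 3 genes nearest to Mettl14, Mettl3 and Rbm15, with predicted genes left out. Leaving out mutant 1 and mutant 2, and lengths of principal transcripts (GENCODE M21), were alternatives chosen after seeing the data. Log2 CPM used a prior count of 2.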

Additional observations from a re-analysis of the deposited data

How the results depend on the processing

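Of 19 alternative settings of the test, 18 test for any change, and under each of those Mettl14, Mettl3, Mettl16, Wtap, Virma and Rbm15 kept their direction and their call. Cbll1 lost its call without mutant 1 and mutant 2 (0.29, adjusted p = 0.110), a fit with fewer samples in which mutant 3 is assumed to vary like the controls. There Rbm15b reversed to -0.012 and 4 members were called higher and 2 lower. Against a null of 1.5-fold change no member was called lower (0) and 2 were called higher (Rbm15 and Mettl16). Under that null 2 of the 6 tested genes listed for S-adenosylmethionine supply and recycling were called lower. Mettl14 was at -0.85 without a call there. In all 1027 genes were called lower and 1720 higher, beside 4235 and 4354 against no change. Leaving out each library in turn gave 2 to 2 members lower, 5 to 6 higher, a Mettl14 log2 fold change of -0.94 to -0.72, and 3448 to 4236 genes lower and 3574 to 4335 higher. No label ties the paired mice to the replicate numbers. Same-numbered libraries had correlations of -0.12, -0.0652 and -0.138 between their deviations from the group means, and differently numbered ones -0.0145 to 0.127. In groups of 3 libraries these deviations sum to 0 and constrain one another. The correlations therefore cannot settle whether the numbers mark pairs. With the replicate block 2 members were called lower and 5 higher, Mettl14 was at -0.85, and 3614 genes were called lower and 3789 higher. In the list of other adenosine methyltransferases of RNA, which includes the activator Trmt112, 2 genes fell. That count was 1 with control 1, control 2 or mutant 3 left out, and 1 at an adjusted p threshold of 0.01. Against a null of 1.5-fold change the count was 0. The cause was not tested. Recomputing gene lengths from the deposited exons changed no level. Zc3h13 was called only with total counts as the scaling (0.27), and Rbm15b only there (0.26) and without mutant 3 (0.28).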
